A study of Mus musculus with 12 samples.

Results

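Expression of DNA repair and DNA damage checkpoint genes was compared between doxorubicin-treated and control mouse tumours, pathway by pathway. The set was a fixed list of 52 genes in 7 pathways: damage signalling and checkpoint, base excision and single-strand break repair, non-homologous end joining, homologous recombination, Fanconi anaemia, mismatch repair, and nucleotide excision repair. The list was chosen with earlier results of these data known. Each gene was represented by its probe set with a single gene symbol and the highest mean over the 12 arrays. By this rule 48 of the 52 genes were measured, out of 12393 genes in all, and Mdc1, Neil1, Lig4 and Fancd2 were not analysed here.

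The tumours were C26, a murine colon carcinoma line, grown under the skin of Balb/c mice aged 6 weeks. On day 8 after inoculation, at a tumour size of about 50 mm3, mice received phosphate-buffered saline (PBS), free doxorubicin (Dox), or CP-Dox, doxorubicin bound to a chimeric polypeptide carrier. Tumours were collected 48 h later, 4 mice per group with 1 array each. No group received the carrier alone, the sources used here give no doses, and every tumour came from the same cell line. The values are robust multi-array average (RMA) signals on a log2 scale, on which a difference of 1 is a 2-fold change, and each log2 fold change is followed by ± its standard error from limma (n = 4 tumours a group). A gene is said to have risen, fallen or changed where its Benjamini-Hochberg adjusted p over all 12393 genes was under 0.05.

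Doxorubicin traps topoisomerase II on DNA and leaves double-strand breaks. Such breaks are marked by phosphorylation of the histone variant H2AX and signalled by the kinases ATM and ATR through CHK2 and CHK1, and they are joined directly by end joining around the Ku ring and DNA-PK or copied from the sister chromatid by homologous recombination in S and G2 phase. Oxidised and missing bases are repaired by base excision, replication errors by mismatch repair, bulky adducts by nucleotide excision, and crosslinks with help of the Fanconi anaemia proteins. Most of this regulation is at the protein level, which the arrays did not measure.

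The 5 members below, with H2ax, are those whose mRNA changed in CP-Dox tumours, and their promoter windows are shown because these genes moved in the same comparison: 4 fell and the last, Ercc5, rose. The windows run from 250 bases before to 50 after the annotated start (RefSeq, build GRCm38.p6, 5′ to 3′ on the strand of the gene). Capitals mark matches on either strand to a CCAAT box (CCAAT), an E2F site (TTTGGCGC, TTTCGCGC, TTTCCCGC or TTTGCCGC) or a cell cycle homology region (CHR, TTTGAA); no 2 of these matches overlap here. H2ax has no entry in the promoter table.
Xrcc6 (chr15:82016119-82016418, plus strand): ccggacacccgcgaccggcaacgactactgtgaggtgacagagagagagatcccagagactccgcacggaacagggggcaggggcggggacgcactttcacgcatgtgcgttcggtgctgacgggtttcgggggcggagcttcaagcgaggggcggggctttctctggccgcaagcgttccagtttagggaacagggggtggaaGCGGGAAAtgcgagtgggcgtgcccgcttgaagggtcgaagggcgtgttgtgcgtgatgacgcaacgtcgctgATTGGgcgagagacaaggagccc
Apex1 (chr14:50924699-50924998, plus strand): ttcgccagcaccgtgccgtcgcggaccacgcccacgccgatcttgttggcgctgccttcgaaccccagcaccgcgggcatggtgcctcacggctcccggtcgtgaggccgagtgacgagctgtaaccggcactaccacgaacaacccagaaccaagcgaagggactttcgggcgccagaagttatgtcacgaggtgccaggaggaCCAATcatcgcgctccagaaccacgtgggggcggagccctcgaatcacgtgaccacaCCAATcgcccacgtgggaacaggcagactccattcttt
Xrcc1 (chr7:24546449-24546748, plus strand): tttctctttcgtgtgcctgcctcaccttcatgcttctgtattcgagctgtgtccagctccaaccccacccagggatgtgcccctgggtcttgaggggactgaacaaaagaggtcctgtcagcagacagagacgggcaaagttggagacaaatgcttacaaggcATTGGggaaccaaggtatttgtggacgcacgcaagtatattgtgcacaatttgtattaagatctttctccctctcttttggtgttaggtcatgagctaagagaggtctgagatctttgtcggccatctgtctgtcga
Parp1 (chr1:180568641-180568940, plus strand): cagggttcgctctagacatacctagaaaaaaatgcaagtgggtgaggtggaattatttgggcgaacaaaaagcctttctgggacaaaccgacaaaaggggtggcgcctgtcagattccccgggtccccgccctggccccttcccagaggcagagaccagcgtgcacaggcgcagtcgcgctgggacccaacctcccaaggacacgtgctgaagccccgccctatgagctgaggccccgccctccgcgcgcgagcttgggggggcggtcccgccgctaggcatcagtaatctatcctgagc
Ercc5 (chr1:44147494-44147793, plus strand): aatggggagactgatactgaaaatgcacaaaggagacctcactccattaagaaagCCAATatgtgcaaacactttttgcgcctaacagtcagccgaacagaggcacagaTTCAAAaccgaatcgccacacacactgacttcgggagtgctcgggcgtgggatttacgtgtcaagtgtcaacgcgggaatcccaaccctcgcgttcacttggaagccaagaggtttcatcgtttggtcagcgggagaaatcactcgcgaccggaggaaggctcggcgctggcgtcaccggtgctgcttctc

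The Xrcc6 window held a CCAAT box and an E2F match, the Apex1 window 2 CCAAT boxes, the Xrcc1 window 1, the Parp1 window no match, and the Ercc5 window a CCAAT box and a CHR match. A CCAAT box was present in 55% of the 40 member windows, which covered 37 members, and in 37.4% of all 32851 windows of the same length. The E2F letters were in 20% of member windows and 2.26% of all windows, and the 8 members with a match were Brca2, Chek2, Fancg, Msh3, Msh6, Nthl1, Topbp1 and Xrcc6. Of those 8 genes, Xrcc6 was the only one called against PBS in CP-Dox or Dox tumours. The CHR letters were in 5% of member windows and 17.9% of all windows, and the p53 response element (both core repeats, with a spacer of up to 13 bases) in 0% and 0.0731%. These are matches of letters, not sites of binding.

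Before the results, the state of the tumours bears on them. CP-Dox replicate 2 stood apart from its group, correlating with the other arrays of that group at 0.948 on average, against 0.971 to 0.977 for those 3 arrays and 0.981 to 0.990 within PBS and Dox. Markers of skin keratinocytes (13 genes) averaged 2.44 and 3.47 above their PBS mean in CP-Dox replicates 1 and 3, but -0.00 and -0.15 relative to it in replicates 2 and 4, and skeletal muscle markers (15 genes) varied in every group, from -2.54 to 3.39 overall. Of these 13 keratinocyte and 15 muscle genes limma called 0 between CP-Dox and PBS, with 5 and 0 at an unadjusted p under 0.05. Of 8 mast cell genes 8 rose in CP-Dox against PBS, where 2.35% of all genes rose. Their tumour means were 1.19 to 1.90 above the PBS mean. Of 8 endothelial genes 3 rose (37.5%), with tumour means of 0.53 to 0.72. The part of these cells in the repair gene values was not tested. Keratins of the tumour epithelium were detected, with group means of 10.10 to 10.65 for Krt8 and 7.26 to 8.20 for Krt18, whereas the colon markers Krt19, Krt20, Vil1, Cdx2, Lgals4 and Cldn7 lay at 4.38 to 5.52, below the 25th percentile of genes (5.65). The epithelial adhesion genes Epcam and Cdh1 had group means of 5.68 to 6.62 and 5.54 to 6.80, highest in CP-Dox, where Cdh1 rose against PBS by 1.25 ± 0.33 (adjusted p = 0.0483). In whole tumours, fewer cells of a type and less RNA per cell cannot be told apart. Results are therefore given with and without replicate 2 where it matters.

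In CP-Dox tumours, the histone variant H2ax, the Ku subunit Xrcc6 and 3 base excision and single-strand break genes, Apex1, Xrcc1 and Parp1, fell, and the nucleotide excision nuclease Ercc5 rose. The falls were between 1.36-fold and 2.18-fold and the rise was 1.85-fold. These 6 were the only measured members that passed the test against PBS: 1 of 48 rose (2.08%) and 5 fell (10.4%), where 2.35% of all genes rose and 3.23% fell, and 5.58% changed. The median log2 fold change of the 48 members was -0.18, against -0.04 over all genes, and 33 members (68.8%) lay below 0, against 55.9% of genes. In 12 members (25%) all 4 CP-Dox tumours lay below all 4 PBS tumours, and in 1 (2.08%) above. Over all genes this was the case for 7.75% and 4.31%. Since the list was chosen with earlier results of these data known, these shares do not test repair genes as a class.

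**Figure D1:**
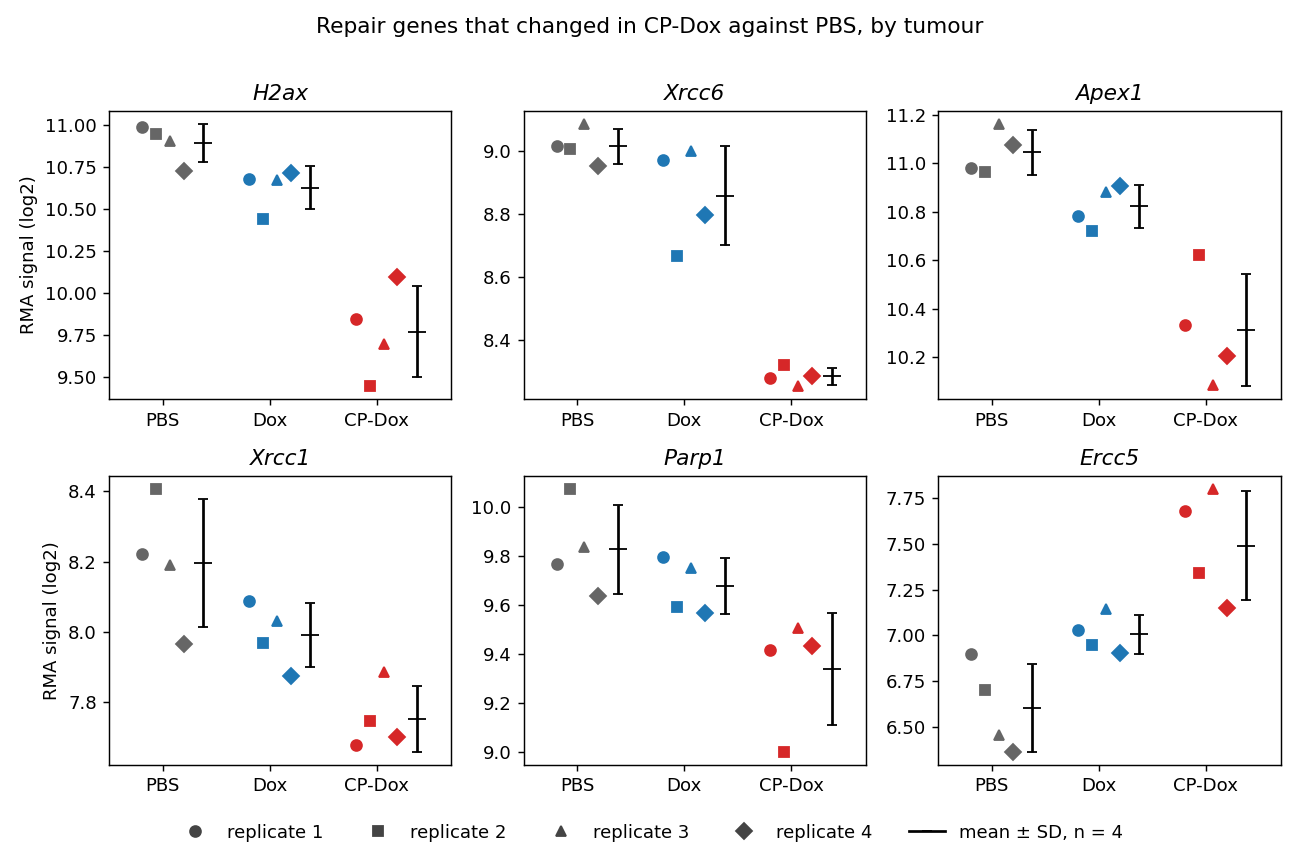
RMA signal (log2) of the 6 repair genes that changed in CP-Dox tumours, by tumour; each symbol is 1 tumour, the shape gives the replicate number, and bars show the mean ± SD (n = 4). H2ax, Xrcc6, Apex1, Xrcc1 and Parp1 are lower and Ercc5 higher in all 4 CP-Dox tumours than in any PBS tumour.

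Among the damage signalling and checkpoint genes, H2ax had the largest log2 change of the 48 members. H2ax encodes the histone that is phosphorylated around breaks. Its signal was 10.99, 10.95, 10.91 and 10.73 in the PBS tumours, 10.68, 10.44, 10.67 and 10.71 in the Dox tumours, and 9.85, 9.44, 9.70 and 10.09 in the CP-Dox tumours. All 4 CP-Dox tumours lay below the other 8, and the Dox tumours lay between. The log2 fold change against PBS was -1.12 ± 0.13 (2.18-fold lower, 95% interval -1.41 to -0.84, adjusted p = 0.00259), and without CP-Dox replicate 2 it was -1.01.

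Part of H2ax expression is tied to S phase, and proliferation genes are therefore given beside it. Relative to PBS, the mean of 19 S phase genes was -0.57, -1.67, -0.53 and -0.45 in CP-Dox replicates 1 to 4, and 0.00, -0.59, -0.00 and -0.17 in the Dox replicates. Of these 19, 4 fell in CP-Dox against PBS (21.1%, where 3.23% of all genes fell) and 15 were not called. All 19 lay below 0, with a median of -0.81, and 15 had an unadjusted limma p under 0.05. In 14 (73.7%) all CP-Dox tumours lay below all PBS tumours, where 7.75% of all genes did so. The 5 genes most like H2ax over the 12 arrays were Pa2g4 (Pearson r = 0.97), Cnot9 (0.97), Ccne1 (0.97), Ruvbl2 (0.97) and Mybl2 (0.96). After each group's mean was taken off, their correlations were 0.70, 0.87, 0.87, 0.66 and 0.82. Ccne1 (cyclin E1) and Mybl2 (B-Myb) act at the entry into and passage through S phase. Of the 5, only Ccne1 is among the 19 S phase genes above. The part of proliferation in the fall of H2ax was not tested.

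Chek1, the checkpoint kinase downstream of ATR, did not pass the test with all arrays. Its signal was 8.46, 8.41, 8.60 and 8.51 in PBS tumours, 8.60, 8.00, 8.50 and 8.52 in Dox tumours, and 7.98, 6.94, 8.00 and 7.98 in CP-Dox tumours. Every CP-Dox value was below every PBS value; replicate 2 lay well below the other 3. The difference was -0.77 ± 0.22 (adjusted p = 0.0684); without CP-Dox replicate 2 it was smaller, -0.51 ± 0.13, and passed (adjusted p = 0.0211).

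Of the 11 checkpoint members, 0 rose and 1 fell (9.09%, where 3.23% of all genes fell). Their median was -0.31 and their range -1.12 to 0.41. Topbp1, the ATR activator, was at -0.43 ± 0.15 (adjusted p = 0.113) and Rad9a, a subunit of the 9-1-1 clamp, at -0.25 ± 0.08 (adjusted p = 0.0800), both with no overlap between CP-Dox and PBS tumours. The other clamp subunits, Hus1 and Rad1, were at -0.33 and -0.31, and the clamp loader Rad17 at -0.16, none of them called. Chek2, the effector kinase of ATM, was at -0.43 ± 0.15 (adjusted p = 0.128). The upstream kinases were at 0.41 for Atm and -0.11 for Atr, and the break-bound adaptor Trp53bp1 at 0.04, again not called.

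Base excision and single-strand break repair held the most calls by count: 3 of 10 fell (30%) and 0 rose. Of all genes 3.23% fell and 2.35% rose, and the pathways held 2 to 11 measured members. The median of the 10 was -0.22, and 9 of 10 members (90%) lay below 0, against 55.9% of genes. The 3 that fell act at successive points. Apex1 is the endonuclease that cuts at a missing base, Parp1 senses the nicked strand, and Xrcc1 is the scaffold that brings ligase III and polymerase beta. Relative to PBS, the mean of the 10 members was -0.27, -0.36, -0.20 and -0.26 in the 4 CP-Dox tumours, while the PBS tumours lay between -0.04 and 0.09 and the Dox tumours between -0.23 and -0.05.

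Apex1 was among the brightest members, at the 91st percentile of genes. Its signal was 10.98, 10.96, 11.16 and 11.07 in PBS tumours, 10.78, 10.72, 10.88 and 10.91 in Dox tumours, and 10.33, 10.62, 10.08 and 10.21 in CP-Dox tumours. On this probe set the 3 groups did not overlap, in the order PBS, Dox, CP-Dox. The change against PBS was -0.73 ± 0.11 (1.66-fold lower, adjusted p = 0.00562). Its 2 other probe sets were at -0.73 and -0.57. For Dox against PBS they were at -0.04 and -0.03, where this probe set was at -0.22, so the place of Dox between rests on 1 probe set.

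Xrcc1 gave 8.22, 8.41, 8.19 and 7.96 in PBS tumours, 8.09, 7.97, 8.03 and 7.87 in Dox tumours, and 7.68, 7.74, 7.88 and 7.70 in CP-Dox tumours. CP-Dox and PBS tumours did not overlap, and the Dox tumours overlapped both. The change was -0.44 ± 0.10 (1.36-fold lower, adjusted p = 0.0274).

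Parp1 gave 9.77, 10.07, 9.84 and 9.64 in PBS tumours, 9.80, 9.59, 9.75 and 9.57 in Dox tumours, and 9.42, 9.00, 9.51 and 9.43 in CP-Dox tumours. CP-Dox replicate 2 was the lowest, but all CP-Dox tumours lay under the others. The change was -0.49 ± 0.13 (1.40-fold lower, adjusted p = 0.0474), close to the threshold, and Parp1 was called in 6 of 21 alternative settings, while Xrcc1 was in 14. The other Parp1 probe sets were at -0.56 and -0.42.

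The other 7 members of the pathway were not called. The glycosylases, which remove damaged bases, were at -0.30 for Mutyh, -0.22 for Ogg1, -0.17 for Nthl1 and -0.12 for Mpg. Parp2, a second nick sensor, was at -0.22, Lig3, the ligase bound to Xrcc1, at -0.08, and the gap-filling polymerase Polb at 0.04.

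In end joining, 1 of 4 members fell (25%, where 3.23% of all genes fell): Xrcc6, which encodes Ku70. Its signal was 9.02, 9.01, 9.09 and 8.95 in PBS tumours, 8.97, 8.67, 9.00 and 8.80 in Dox tumours, and 8.28, 8.32, 8.25 and 8.29 in CP-Dox tumours. The 4 CP-Dox tumours, replicate 2 included, lay close together and all below the rest. The change was -0.73 ± 0.08 (1.66-fold lower, 95% interval -0.91 to -0.55, adjusted p = 0.00259), and -0.74 without replicate 2.

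Xrcc5, which encodes Ku80, the partner of Ku70 in the Ku ring, did not follow in every tumour. It gave 8.05, 7.83, 7.96 and 7.75 in PBS tumours, 7.85, 7.63, 7.95 and 7.06 in Dox tumours, and 7.56, 8.38, 7.59 and 7.37 in CP-Dox tumours. Its highest value of all was in CP-Dox replicate 2, and the other 3 CP-Dox tumours lay below the PBS range. The difference was -0.17 (adjusted p = 0.665), and -0.39 without CP-Dox replicate 2 (adjusted p = 0.161).

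Prkdc, the catalytic subunit of DNA-PK, gave 6.37, 6.58, 6.09 and 5.72 in PBS tumours, 6.62, 6.52, 6.19 and 5.80 in Dox tumours, and 6.96, 6.30, 6.83 and 6.36 in CP-Dox tumours. The groups overlapped, at 0.42 ± 0.23 (adjusted p = 0.289). Xrcc4, the partner of ligase IV, was at 0.11 (adjusted p = 0.571). The median of the 4 end joining members was -0.03 (-0.16 without CP-Dox replicate 2), the range -0.73 to 0.42.

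**Figure D2:**
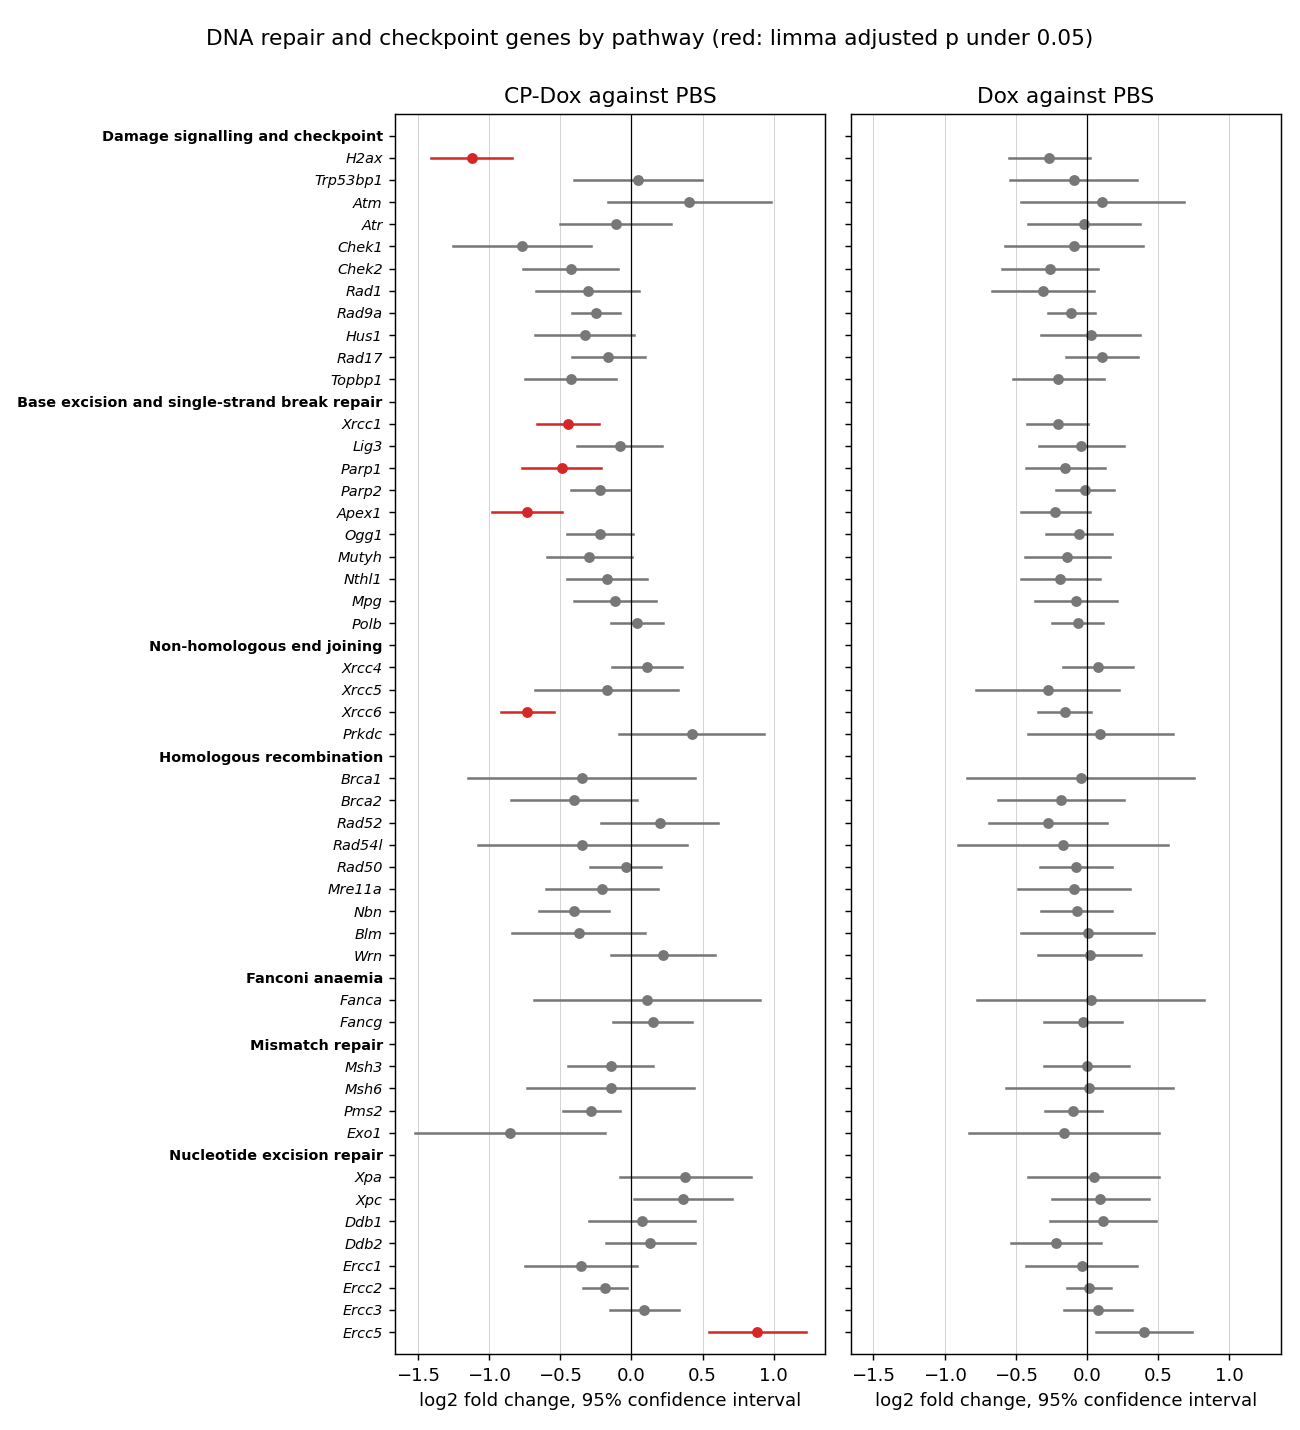
Log2 fold change of each of the 48 measured members by pathway, CP-Dox against PBS and Dox against PBS; each point is 1 gene, the line is its 95% confidence interval, and red marks a limma adjusted p under 0.05. The 6 red genes are all in the CP-Dox comparison: 1 checkpoint, 3 base excision, 1 end joining and 1 nucleotide excision gene.

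Of the 9 homologous recombination genes 0 were called by limma against PBS, with 1, Nbn, at an unadjusted p under 0.05. Their median was -0.34, the range -0.40 to 0.22, and 7 of 9 lay below 0. Without CP-Dox replicate 2 the median was 0.06 and 4 of 9 lay below 0, so that 1 tumour set the sign of the median. Nbn, the signalling subunit of the MRN complex that first binds broken ends, gave 7.70, 7.75, 7.64 and 7.44 in PBS tumours, 7.48, 7.35, 7.70 and 7.72 in Dox tumours, and 7.30, 7.01, 7.36 and 7.25 in CP-Dox tumours. CP-Dox and PBS did not overlap, and the difference was -0.40 ± 0.11 (adjusted p = 0.0615).

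Brca2, a mediator of homologous recombination, gave 7.62, 7.62, 7.64 and 7.48 in PBS tumours, 7.59, 7.18, 7.62 and 7.24 in Dox tumours, and 7.52, 6.49, 7.48 and 7.25 in CP-Dox tumours. The groups overlapped, and the difference of -0.40 ± 0.20 (adjusted p = 0.248) was -0.17 ± 0.13 without CP-Dox replicate 2. Leaving out that tumour also moved Brca1, the E3 ligase that promotes recombination, from -0.35 to 0.09, the DNA translocase Rad54l from -0.34 to 0.08 and the MRN nuclease Mre11a from -0.21 to -0.02. Rad50, the third MRN subunit, was at -0.04, the helicases Blm and Wrn at -0.37 and 0.22, and Rad52 at 0.20.

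The members of the recombination pathway averaged 0.05, -0.76, 0.05 and -0.10 relative to PBS in CP-Dox replicates 1 to 4. Replicate 2 was the lowest of all 12 arrays in 19 of the 48 members. These were Blm, Brca1, Brca2, Chek1, Chek2, Exo1, Fanca, H2ax, Mpg, Mre11a, Mutyh, Nbn, Parp1, Parp2, Pms2, Rad50, Rad54l, Topbp1 and Wrn. In the same tumour the mean of 19 mitosis genes was at -1.75, against -0.20, -0.34 and -0.19 in the other CP-Dox tumours. Among the mitosis genes, Top2a, the doxorubicin target, gave 11.26, 8.96, 11.08 and 11.17 in the CP-Dox tumours and Mki67 9.73, 7.78, 9.41 and 9.27. The part of proliferation in these repair gene values was not tested.

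**Figure D3:**
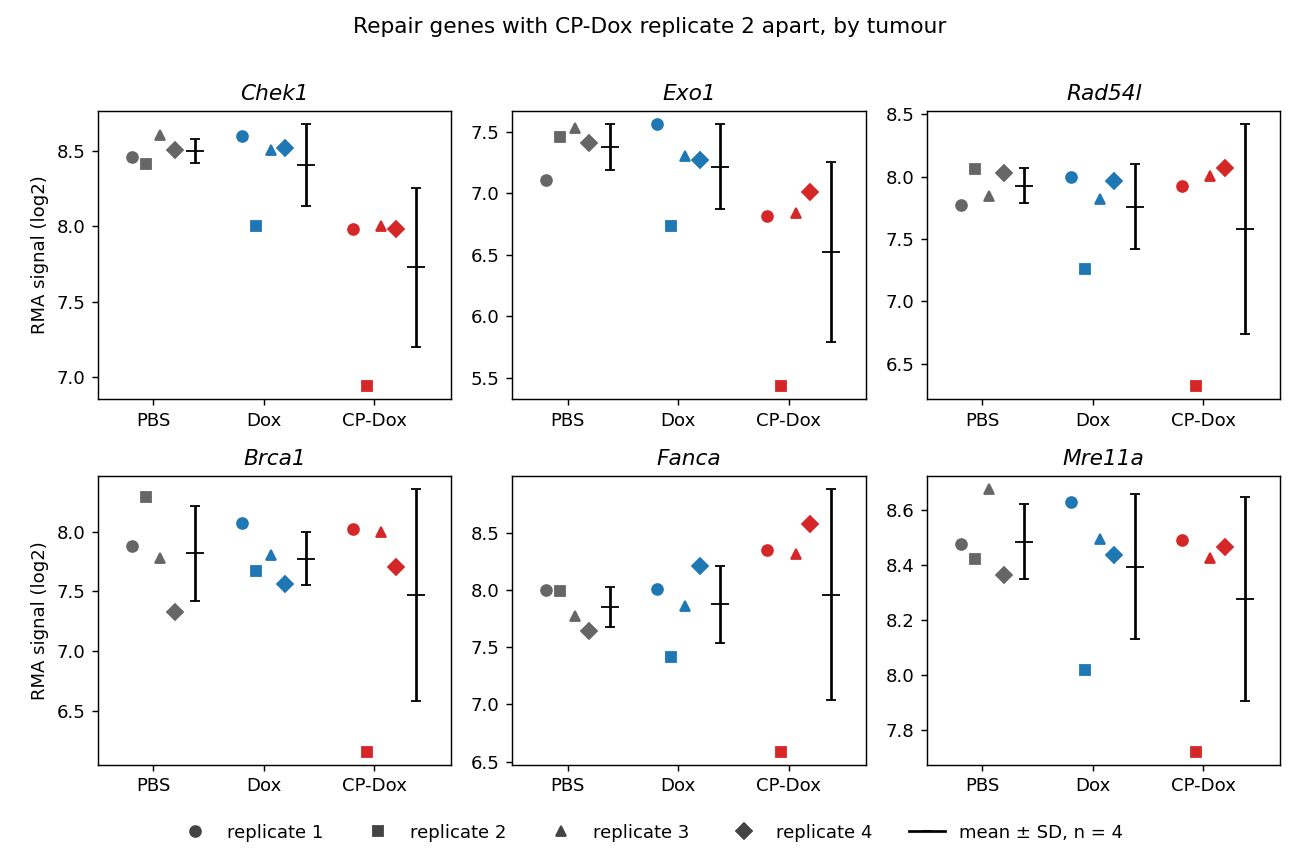
RMA signal (log2) by tumour for Chek1, Exo1, Rad54l, Brca1, Fanca and Mre11a, chosen after their values were seen; shapes give the replicate number and bars the mean ± SD (n = 4). The square of CP-Dox replicate 2 is the lowest point of all 12 in each panel, at 6.94 for Chek1 and 5.43 for Exo1.

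Without CP-Dox replicate 2, 11 members were called against PBS, the 6 above among them. Leaving out an array that stands apart lowers the spread, and the fit then called 2363 genes in all (19.1%), so these calls are not separate support. The 5 further members were Chek1, Rad1 (-0.46) and Ercc1 (-0.55), which were lower, and Wrn (0.41) and Fanca (0.57), which were higher. The other Fanca probe set was at -0.12 with all arrays.

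Of the 2 measured Fanconi anaemia members, both subunits of the core complex, limma called 0 against PBS and 0 had an unadjusted p under 0.05. Fanca gave 8.00, 7.99, 7.77 and 7.64 in PBS tumours, 8.01, 7.42, 7.86 and 8.21 in Dox tumours, and 8.35, 6.59, 8.32 and 8.58 in CP-Dox tumours. CP-Dox thus held the 3 highest values of all 12 tumours and, in replicate 2, the lowest, and the difference with all arrays was 0.11 ± 0.36 (adjusted p = 0.874). Fancg gave 5.89, 6.26, 5.93 and 5.91 in PBS tumours, 6.05, 5.79, 6.00 and 6.04 in Dox tumours, and 6.11, 5.89, 6.15 and 6.43 in CP-Dox tumours, overlapping throughout (0.15 ± 0.13, adjusted p = 0.492). Fancg was the dimmest member, at the 30.9th percentile of genes.

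In mismatch repair 0 of 4 members were called by limma against PBS (2 at an unadjusted p under 0.05), and all 4 lay below 0, with a median of -0.21. Pms2, a subunit of the MutL nicking complex, gave 7.61, 7.50, 7.54 and 7.36 in PBS tumours, 7.53, 7.34, 7.43 and 7.34 in Dox tumours, and 7.31, 7.02, 7.31 and 7.24 in CP-Dox tumours. CP-Dox lay below PBS without overlap, at -0.28 ± 0.09 (adjusted p = 0.0969).

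Exo1, the exonuclease that removes the strand with the error and also trims broken ends, gave 7.10, 7.46, 7.53 and 7.41 in PBS tumours, 7.56, 6.73, 7.31 and 7.27 in Dox tumours, and 6.81, 5.43, 6.84 and 7.01 in CP-Dox tumours. Again there was no overlap with PBS, at -0.85 ± 0.31 (adjusted p = 0.126), and at -0.49 without replicate 2 (adjusted p = 0.0719). The mismatch recognition genes Msh3 and Msh6 were both at -0.15.

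Nucleotide excision repair held the only rise among the 48 members, 2.08% of them, where 2.35% of all genes rose. Of its 8 members 1 rose (12.5%) and 0 fell. The median was 0.11 (0.18 without CP-Dox replicate 2) and 6 of 8 lay above 0. The 13 further genes of this pathway, given below, had a median of -0.11, with 10 of 13 below 0. Ercc5 encodes XPG, the nuclease that cuts 3′ of the lesion. It gave 6.90, 6.70, 6.46 and 6.37 in PBS tumours, 7.03, 6.95, 7.15 and 6.91 in Dox tumours, and 7.68, 7.34, 7.80 and 7.15 in CP-Dox tumours. All Dox and CP-Dox tumours lay above all PBS tumours. The CP-Dox change was 0.88 ± 0.15 (1.85-fold higher, 95% interval 0.55 to 1.22, adjusted p = 0.00989).

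Ercc1, the partner of XPF, which cuts 5′ of the lesion, was the brightest member (95.4th percentile). It gave 11.54, 11.74, 11.48 and 11.53 in PBS tumours, 11.54, 11.82, 11.53 and 11.25 in Dox tumours, and 11.08, 11.80, 11.03 and 10.96 in CP-Dox tumours. Replicates 1, 3 and 4 lay below all other tumours and replicate 2 next to the highest, so that the difference of -0.35 had an adjusted p of 0.252 with all arrays and -0.55 ± 0.12 without replicate 2 (adjusted p = 0.0120).

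Of the TFIIH helicases, which open the DNA, Ercc2 gave 7.76, 7.93, 7.80 and 7.83 in PBS tumours, 7.83, 7.86, 7.81 and 7.88 in Dox tumours, and 7.73, 7.61, 7.54 and 7.67 in CP-Dox tumours. It was lower in every CP-Dox than in every PBS tumour by a small margin (-0.19 ± 0.07, adjusted p = 0.141), and Ercc3 was at 0.09. The lesion sensors Xpc and Ddb2 were at 0.36 ± 0.16 (adjusted p = 0.191) and 0.13 ± 0.14 (adjusted p = 0.597), Ddb1 at 0.07 and the verifier Xpa at 0.38, none called. Over the same tumours the mean of 22 p53 target genes was 1.16, 0.51, 1.55 and 1.01 above PBS. Of the 22, 10 were called higher (45.5%, where 2.35% of all genes rose). Among these the cell cycle inhibitor Cdkn1a rose by 1.50 ± 0.27 (adjusted p = 0.0109) and the p53 ligase Mdm2 by 1.35 ± 0.26 (adjusted p = 0.0157). In the Dox tumours the mean of the 22 was 0.61, 0.28, 0.36 and 0.25, against -0.068 to 0.075 in PBS tumours. After Dox limma called 0 of the 22, with 8 at an unadjusted p under 0.05.

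**Figure D4:**
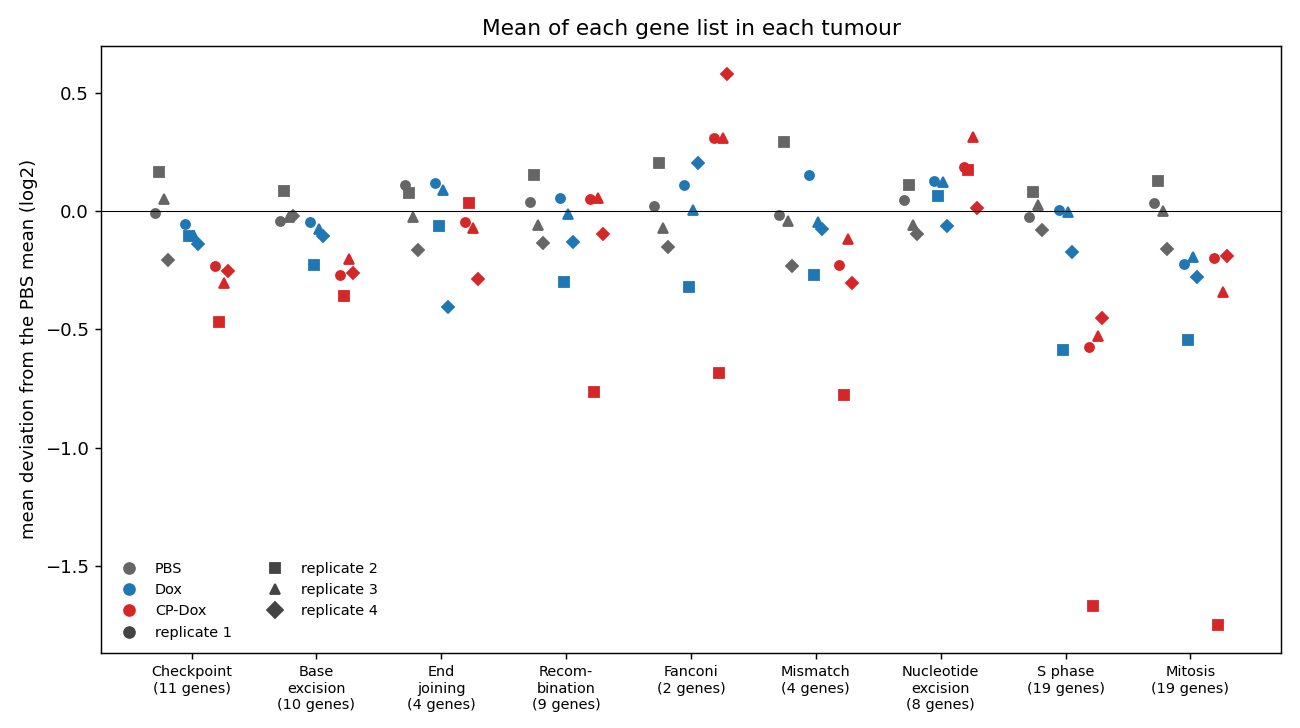
Mean deviation of each pathway's measured members, and of 19 S phase and 19 mitosis genes, from their PBS mean (log2); each symbol is 1 tumour, coloured by group and shaped by replicate number. The base excision points of all 4 CP-Dox tumours, from -0.36 to -0.20, lie below every PBS point, while recombination and mismatch repair are set apart mainly by CP-Dox replicate 2, at -0.76 and -0.78.

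Pathway means by tumour show how far the listed genes lay from PBS together. In mismatch repair the mean of the 4 genes was -0.23, -0.78, -0.12 and -0.30 in the CP-Dox tumours, and the checkpoint mean was -0.23, -0.47, -0.31 and -0.25, against -0.21 to 0.17 in PBS tumours. End joining averaged -0.05, 0.03, -0.07 and -0.29, and nucleotide excision 0.19, 0.17, 0.31 and 0.01 against -0.10 to 0.11 in PBS tumours. Checkpoint and base excision means lay below the PBS range in all 4 CP-Dox tumours, and the differences between pathways were not tested.

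Subunits of a complex were compared within each tumour as a difference of their log2 signals, for 10 pairs, by exact two-sided permutation tests of CP-Dox against PBS, for which the smallest possible p with 4 tumours per group is 0.0286. The difference from PBS was -0.56 for Xrcc6 relative to Xrcc5, -0.36 for Xrcc1 relative to Lig3, -0.36 for Nbn relative to Rad50, and 0.28 for Ercc3 relative to Ercc2. Without CP-Dox replicate 2 these were -0.35, -0.30, -0.39 and 0.30. In each of these 4 pairs the groups did not overlap (exact permutation p = 0.0286, 0.0715 after Benjamini-Hochberg adjustment over the 10 pairs), so none passed after adjustment. All 4 were at the smallest possible p, so that with so few pairs there the adjusted test could not be passed. Xrcc6 and Xrcc1 had themselves fallen in the same tumours, so their pairs are not separate results. In the other 6 pairs, within MRN, the 9-1-1 clamp and the DDB complex, exact permutation p was 0.229 to 0.971.

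After free Dox no repair gene changed: limma called 0 of the 48 members against PBS and 0 of all 12393 genes (0%), with 1 member and 558 genes (4.5%) at an unadjusted p under 0.05. That member was Ercc5, at 0.40 (95% interval 0.06 to 0.74, limma unadjusted p = 0.0246, adjusted p = 0.995). The members ranged from -0.31 to 0.40, with a median of -0.07 (all genes 0.00). H2ax was at -0.26 (interval -0.55 to 0.02), Xrcc6 at -0.16 (-0.34 to 0.03), Apex1 at -0.22, Xrcc1 at -0.21 and Parp1 at -0.15. The other Apex1 probe sets were at -0.04 and -0.03, and those of Parp1 at -0.11 and 0.06. The Dox tumours lay below the PBS tumours without overlap in H2ax, Chek2 and Apex1, and above in Ercc5, 3 and 1 of 48 members, where 2.13% and 1.71% of all genes did so (3.84% together). All 10 base excision members lay below 0, with a median of -0.11. The medians of the other pathways were -0.09 for checkpoint, -0.04 for end joining, -0.08 for recombination, -0.05 for mismatch and 0.06 for nucleotide excision genes.

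The direct comparison of CP-Dox with Dox tests whether the 2 treated groups differed, which their separate comparisons with the same PBS tumours do not. With no doses given and no group on the carrier alone, drug form, dose and carrier cannot be told apart. H2ax was lower in CP-Dox by 1.81-fold (-0.86 ± 0.13, adjusted p = 0.0413) and Xrcc6 by 1.49-fold (-0.57 ± 0.08, adjusted p = 0.0392). These 2 of 48 members (4.17%) fell and 0 rose, where 0.169% of genes fell, 0.0565% rose and 0.226% changed. Leaving out 1 array ended 1 or both calls in 9 of 12 fits: neither was left without PBS replicate 1 or 2, Dox replicate 1 or 3, or CP-Dox replicate 1 or 3, Xrcc6 alone was left without Dox replicate 2 or 4 and H2ax alone without CP-Dox replicate 4, and 5 members were called without CP-Dox replicate 2, where 9.28% of all genes were. Neither was called when the CP-Dox and Dox arrays were fitted alone, or when the replicate number was added to the fit as a block. Apex1 was at -0.51 ± 0.11 (adjusted p = 0.0829), Ercc5 at 0.48 ± 0.15 (adjusted p = 0.189), Parp1 at -0.34 and Xrcc1 at -0.24, not called. In 6 of the 48 members (12.5%) all CP-Dox tumours lay below all Dox tumours and in 1 (2.08%) above. Over all genes the shares were 6.34% and 3.29% (9.63% together). The median of the 48 members was -0.14, against -0.03 over all genes.

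A second list of 96 repair genes of the same pathways was set beside the members, of which 65 were measured. Against PBS, 6 fell in CP-Dox tumours (9.23%) and 0 rose, where 3.23% of all genes fell and 2.35% rose. The median of the 65 was -0.27. By count the base excision pathway had the most, 3 of 13. This list was measured in the same tumours and was also chosen with earlier results of these data known. Its counts are therefore not a separate test of the result for the members. The part of proliferation in these falls was not tested. Ung, the glycosylase that removes uracil from DNA, fell the furthest of the 65. Its signal was 8.03, 7.88, 8.17 and 8.25 in PBS tumours, 7.93, 7.35, 8.05 and 7.96 in Dox tumours, and 6.17, 5.94, 6.45 and 6.58 in CP-Dox tumours. The CP-Dox tumours lay far below the rest, at -1.80 ± 0.18 against PBS (adjusted p = 0.00237) and -1.54 ± 0.18 against Dox (adjusted p = 0.0117).

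Tdp1, which frees DNA ends from stalled topoisomerase I, fell by 0.79 ± 0.10 on the log2 scale (adjusted p = 0.00290), and Pcna, the sliding clamp of replication and repair synthesis, by 0.65 ± 0.15 (adjusted p = 0.0346). Tdp2, which frees ends from topoisomerase II and is named here after its value was seen, was at -0.02 ± 0.18 (adjusted p = 0.951). Of 12 further checkpoint genes, 2 fell: Tipin, of the fork protection complex, by 0.91 ± 0.13 (adjusted p = 0.00433) and Usp1, which removes ubiquitin from PCNA and FANCD2, by 0.70 ± 0.12 (adjusted p = 0.00841). In end joining, 1 of 4 fell, the lymphoid polymerase Dntt, by 0.45 ± 0.12 (adjusted p = 0.0476), at a dim 4.76 to 5.53. Of 7 Fanconi, 13 recombination, 3 mismatch and 13 nucleotide excision genes, limma called 0 against PBS, with 3, 6, 2 and 2 at an unadjusted p under 0.05. The 13 further nucleotide excision genes had a median of -0.11, with 10 of 13 below 0, on the other side of 0 from the median of the 8 members. After Dox 0 of the 65 were called by limma, with 1 at an unadjusted p under 0.05.

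Beside these groups, the cycle gene Ccna2 fell by 1.08 ± 0.21 in CP-Dox against PBS (adjusted p = 0.0173), while Mki67 (-0.72 ± 0.34, adjusted p = 0.231) and Top2a (-0.36 ± 0.44, adjusted p = 0.638) were not called. Of 13 interferon response genes, the mean was 1.76, -1.67, 1.71 and 1.62 relative to PBS in the CP-Dox tumours, so that replicate 2 differed from the other 3 in this list too. The part of the keratinocyte markers, high in CP-Dox replicates 1 and 3, was not tested. With those replicates left out, a setting chosen after seeing the data, H2ax was at -1.12, Xrcc6 at -0.71, Apex1 at -0.63, Parp1 at -0.61, Xrcc1 at -0.47 and Ercc5 at 0.64, with 0 of the 6 called in the 2 tumours left.

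The number of arrays limits the precision: standard errors had a median of 0.15 over the members and 0.13 over all genes. H2ax, Xrcc6, Xrcc1 and Ercc5 had 1 probe set each. For CP-Dox against PBS, among members with several, Rad52, Fanca, Trp53bp1 and Xpa had another probe set of the opposite sign. So had Polb and Msh3 for 1 of 2 others. None of these 6 genes was called in that comparison with all arrays, and Fanca was called only without CP-Dox replicate 2.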

How the data were processed

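RNA of 12 tumours, 4 per group by the sample titles, was measured on 1 Affymetrix mouse array each. The deposited log2 signals were made by the authors with RMA (background correction, quantile normalization, probe summary), and Partek is also named, per the submitters' processing notes; versions and order are not given in the sources used here. Of 22690 probe sets, 64 controls, 691 with several symbols and 1555 with none were left out. The 20380 others gave 12393 genes, by the probe set with the highest mean, and 20351 identifiers matched the reference table (0 symbols changed).

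All 3 comparisons came from 1 limma 3.58.1 fit (R 4.3.3, lmFit and eBayes, a mean per group, no filter, two-sided p adjusted by Benjamini-Hochberg over 12393 genes), which was tested on simulated data. The replicate numbers name mice. Each limma p-value sets a difference between groups against the spread between tumours within groups, pooled over all 3 groups. CP-Dox, the group with the lowest correlations between its arrays, thus also enters the spread used for Dox against PBS. The members and lists were chosen with earlier results of these data known. By rule, every called member, at least 2 members per pathway, up to 3 called other repair genes per pathway, 5 context genes (Cdkn1a, Mdm2, Mki67, Top2a, Ccna2) and the 5 genes most like H2ax are named with values; the other names are given with a log2 fold change. Permutation tests used scipy 1.17.1 and figures matplotlib 3.10.9. Alternatives were other scalings, probe set and variance treatments, a filter on the dimmest 40% of genes, array weights, fitting only the groups compared, a replicate block, and leaving out each array; leaving out CP-Dox replicates 1 and 3 together was chosen after seeing the data. Marker lists held genes of S phase, mitosis, p53 targets, skin, muscle, interferon response and other cell types.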

Additional observations from a re-analysis of the deposited data

Results flagged for a closer look

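Tumours far from the others of their group were looked for in 144 groups of 4 values of single members, of which 13 had one, where chance gives about 1 in 20; a further one lay in a pathway mean. In CP-Dox replicate 2, Chek1 (6.94), Exo1 (5.43), Rad54l (6.32), Mre11a (7.72) and Fanca (6.59) lay far below the other 3 CP-Dox tumours, and Ercc1 (11.80) far above. In Dox replicate 2, H2ax (10.44), Chek1 (8.00) and Parp2 (8.19) lay below, and Trp53bp1 (8.82) and Xpa (6.91) apart from the other Dox tumours. In the PBS group, Brca2 was low in replicate 4 (7.48) and Fancg high in replicate 2 (6.26), and the mean deviation of the base excision genes was high in replicate 2 (0.0856). Of the 13, 11 were in a tumour numbered 2 of Dox or CP-Dox, in which the mean of the S phase genes was also the lowest of its group (-0.59 and -1.67).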

How the results depend on the processing

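The 6 called members kept their direction in all 21 alternatives, and H2ax, Xrcc6 and Apex1 were called in 20, Ercc5 in 19, Xrcc1 in 14 and Parp1 in 6 of them; the adjusted p of H2ax ranged from 0.000289 to 0.0699 and that of Parp1 from 0.0162 to 0.156. Against PBS, 10 members were called after a second quantile normalization (with 6.13% of all genes called), 14 with array weights (with 21.5% of all genes called, and 17 of the other repair genes), 3 when the compared groups were fitted alone (with 1.6% of all genes called, and 4 others), and 0 without CP-Dox replicates 1 and 3 (0), where 2 genes were called in all. Leaving out 1 array gave 4 to 11 members and 4 to 15 others, with 1.73% to 19.1% of all genes called. The counts of 11 and 15, and the 19.1%, came only without CP-Dox replicate 2. Against Dox, array weights gave 12 members (with 15.8% of all genes called) and 16 others. The fit of the compared groups alone gave 0 and 0, as did the set without replicates 1 and 3, with 0 of all genes called in either. Leaving out 1 array gave 0 to 5 members and 0 to 9 others, with 0.00807% to 9.28% of all genes called. The other genes called against Dox numbered 2 after a second quantile normalization, 3 after centring, 4 without the dimmest 40% of genes and 2 with the mean of probe sets. In these settings 0.347%, 0.299%, 0.379% and 0.274% of all genes were called. For Dox against PBS, 0 members and 0 others were called in each of the 21 alternatives. Scaling moved the split of all calls: 57.9% of those against PBS were lower, 64.9% after a second quantile normalization and 70% after centring, and against Dox 75%, 76.7% and 89.2%.

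With the replicate number as a block, 6 members and 9 others were called against PBS (Chek1 came in, Parp1 dropped out), and 0 members (H2ax and Xrcc6 were lost) and 2 others against Dox. In that fit 8.03% of all genes were called against PBS and 0.0646% against Dox. The numbers were not taken as pairs, since only 8 of 12 correlations between equal numbers were over 0.1, the lowest -0.311. As a hint from the data, an array was most like its own number in 12 of 24 cases with 4 candidates each, and for Dox with CP-Dox the correlations of equal numbers were 0.294, 0.505, 0.02 and 0.435.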
